A study of Mus musculus with 74 samples.

Results

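The peaks described here are those of the KRAB zinc finger proteins (KRAB-ZFPs) Rex2 and Zfp600 that lay away from the sites of Zfp961 and Gm13051, which are KRAB-ZFPs placed by the study on ETn retrotransposons. They were chosen from the deposited peak table by position: a summit was kept when no Zfp961 or Gm13051 summit lay within 10 kb. By this rule 23 of 67 Rex2 peaks (34.3%) and 108 of 120 Zfp600 peaks (90%) were away, or 131 of the 187 peaks of both proteins in a table with 53011 usable peaks. The other 44 Rex2 and 12 Zfp600 peaks were near an anchor, as were 2.23% of 50817 peaks of KRAB-ZFPs other than these 4 proteins. The positions of the peaks fixed this division, so it is a description and was not tested.

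The series holds 74 samples of chromatin immunoprecipitation sequencing (ChIP-seq) and its controls, with 1 sample for each tagged KRAB-ZFP. Rex2 and Zfp600 were each overexpressed with an N-terminal 3XHA tag in F9 EC cells, a mouse embryonal carcinoma line, and both were precipitated with the HA antibody ab9110. Zfp961 and Gm13051 carried an N-terminal 3XFLAG tag in the same line and were precipitated with the FLAG antibody F1804. All 4 groups shared the crosslinking with 1% formaldehyde for 10 minutes and the overexpression of a tagged protein from an integrated transgene, with drug-resistant clones pooled before ChIP. An input and a control ChIP with the matching antibody served as background for peak calling. The peaks of Rex2, Zfp961 and Gm13051 were kept at a p-value under 1e-10 and an enrichment over 20, whereas those of Zfp600 were kept at a p-value under 1e-05 and an enrichment over 10. No protein had a replicate and the values carry no error between samples, and the peaks of a protein come from a single library and are not replicates of each other.

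KRAB-ZFPs bind DNA through tandem zinc fingers and recruit the corepressor KAP1 through their KRAB domain, which leads to heterochromatin at the bound site. Many of them recognise sequences of endogenous retroviruses. ETn elements are a group of mouse retrotransposons that lack the genes for their own mobility, remain able to transpose with the help of related proviruses, and cause mutations in inbred mice. Each element carries a long terminal repeat (LTR) at both ends, and a primer binding site follows the first LTR.

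To ask whether the away peaks lie outside ETn elements, the 200 bp window around each summit was searched for the 50-base ETn oligo that the study used as the Rex2 target. It is shown because it separates the Rex2 peaks into distinct sets. The capitals mark CTACGG, a run of letters taken up again below.
ETn target oligo: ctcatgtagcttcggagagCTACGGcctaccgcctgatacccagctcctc

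The label "outside ETn sites" held for the Zfp600 peaks but only partly for the Rex2 peaks. Of the 23 away Rex2 peaks, 10 held a copy of this oligo (43.5%, 95% Wilson interval 25.6% to 63.2%), as did 44 of 44 near Rex2 peaks. A copy was found in 0.00379% of the 52824 windows of the other KRAB-ZFPs, which is 2 windows, and in 0 of 20000 random windows. None of the 108 away Zfp600 peaks held a copy (0%, Wilson interval 0% to 3.43%), whereas 11 of 12 near Zfp600 peaks did. The windows fell into distinct classes, since those called as copies had at most 8 edits (substitutions, insertions or deletions) against the oligo and all other Rex2 and Zfp600 windows had at least 17. An LTR of ETn type, located by aligning the study's LTR probes to the genome, lay within 10 kb of the same number of away Rex2 peaks, 10 of 23, and of 3 of 108 away Zfp600 peaks (2.78%), compared with 3.23% of the peaks of the other KRAB-ZFPs and 1.92% of random windows. The rule removed summits near Zfp961 or Gm13051, and neither comparison set passed this rule. The peaks of the other KRAB-ZFPs still include those of Zfp961 and Gm13051. The away shares can thus be lowered by the rule, and these comparisons support nothing by themselves. The intervals cover counting error only.

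The 10 away Rex2 peaks on ETn copies were in the same range of strength as those near an anchor. Their fold enrichment over the local background ran from 23.97 to 66.15 with a median of 45.2. The strongest were at chrX:15921343-15921542 with 50 tags (reads in the called peak) and chr11:6658748-6658947 with 43 tags, both with a fold of 66.15. The peaks at chrX:149296533-149296732, chr6:67605613-67605812, chr1:173793928-173794127 and chr12:22842273-22842472 had folds of 52.92, 50.53, 48.51 and 41.89. Of these 6 peaks only that on chromosome 1 lay in a gene, in an intron of Cd84, a receptor of the SLAM family on leukocytes; the others were intergenic. Considering exact copies alone, the 8 away peaks had a median fold of 49.5 and the 20 near peaks one of 45.5, with ranges of 24.2 to 66.2 and 20.9 to 70.2 that overlap almost entirely. The summit lay 5 to 13 bp from the centre of the copy at the 8 exact copies, and 29 and 50 bp from it at the 2 others.

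**Figure D1:**
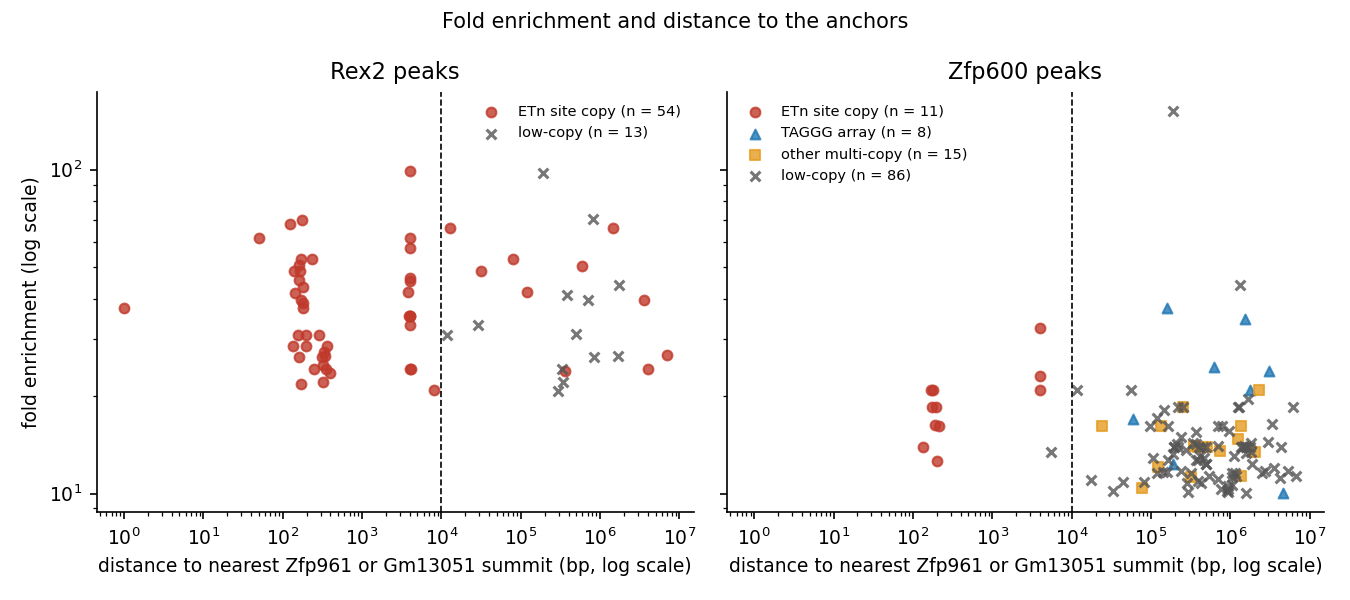
Each point is a peak, with the distance of its summit to the nearest Zfp961 or Gm13051 summit (bp, log scale) on the x axis and its deposited fold enrichment (log scale) on the y axis, and the dashed line is the 10 kb limit. Rex2 peaks on ETn copies (red circles) lie on both sides of the limit, 44 near and 10 away, whereas the 11 Zfp600 peaks on ETn copies are all near, and the single highest fold in either protein is the away Zfp600 peak at 151.7.

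Most copies in the genome had no called Rex2 peak. A search of mm9 found 242 copies of the oligo on assembled chromosomes, all with an ETn LTR match within 10 kb, and 54 of them (22.3%) had a Rex2 summit within 100 bp. Exact copies had a peak in 28 of 30 cases (93.3%, Wilson interval 78.7% to 98.2%), copies with 1 edit in 13 of 33 and copies with 2 edits in 2 of 54. Among exact copies, a peak was present at 20 of 20 near an anchor and at 8 of 10 away from both. Copies with 7 or more edits had a peak at 9 of 58 near an anchor and at 0 of 6 away. Zfp600 had a peak at 11 of the 242 copies, all of which also had a Rex2 peak. It had a peak at 11 of the 179 copies near an anchor and at 0 of the 63 away. Among copies with a Rex2 peak these were 11 of 44 near and 0 of 10 away. Such small counts do not show that Zfp600 avoids the away copies. The 2 exact copies without a Rex2 peak lay at chr1:7606139-7606188 and chr17:40717690-40717739, and both were away from the anchors.

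**Figure D2:**
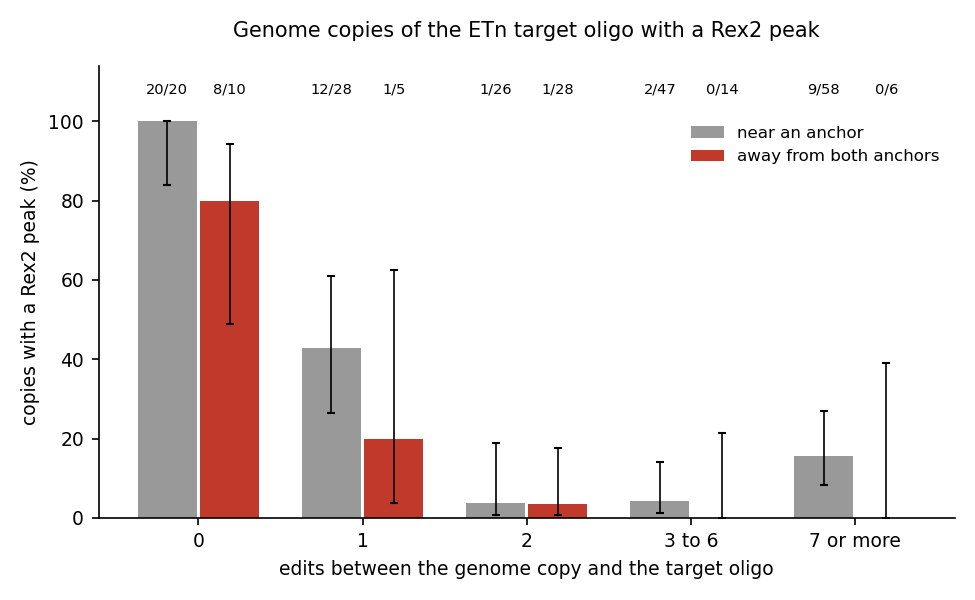
Bars give the share of genome copies of the ETn target oligo that had a Rex2 summit within 100 bp (%), by the number of edits to the oligo, for copies near an anchor (grey) and away from both anchors (red). Error bars are 95% Wilson intervals and the fractions are copies with a peak over all copies, from 8 of 10 exact away copies to 1 of 28 away copies with 2 edits.

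The substitution most frequent among these copies, A37T, was singled out after it was seen which copies had a peak. Counting from 1 at the 5′ end of the oligo, A37T was present in 115 of the 175 copies that align without gaps, and 2 of these 115 (1.74%) had a Rex2 peak. Of the 60 copies without A37T, 43 had a peak (71.7%, Wilson interval 59.2% to 81.5%). These 60 include the 30 exact copies, and of the 30 changed copies without A37T 15 had a peak (50%, Wilson interval 33.2% to 66.8%). Further changes were present in 108 of the 115 copies with A37T. The 7 copies whose only change was A37T had 0 peaks, while the 4 copies whose only change was G14A had 3. Among copies away from the anchors, 9 of 14 without A37T, of which 10 were exact, and 1 of 40 with it had a peak. The exception was the peak at chr6:133964078-133964277, whose copy carried G36A and A37T and whose fold of 23.97 was the lowest of the 10. Copies share descent, so they are not independent observations. A median of 132 to 146 genome positions shared the 24-mers of these 10 windows, and reads with several equally good positions were placed at 1 of them, so signal at a copy and at its near-identical relatives cannot be told apart.

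None of the 10 copies had an exact match to the Zfp961 target, the lysine tRNA primer binding site. Within 600 bp of the copy, in the direction of the primer binding site, the best match to the study's Zfp961 oligo had 2 to 5 edits with a median of 3.5. The 32 copies with a Rex2 peak and Zfp961 within 10 kb had a median of 2 edits, and 12 of them were exact. Over all 242 copies, 29 of 108 with a Zfp961 summit within 10 kb and 0 of 134 without it had an exact match. The match to the Gm13051 target oligo, searched within 8000 bp in the other direction, had 6 to 9 edits at 7 of the 10 copies and 19 edits at the other 3. The 12 copies with a Rex2 peak and Gm13051 alone nearby had 6 to 9 edits, so the edits overlapped between copies with and without Gm13051 nearby.

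The other 13 away Rex2 peaks lay in unique sequence. Every one had a median 24-mer copy number of 1, so 0 of 13 were multi-copy by the limit of 10 copies (Wilson interval 0% to 22.8%). The share was 34.5% in the peaks of the other KRAB-ZFPs and 12.9% in random windows, and the interval covers the latter. The 13 are what remained once the 10 peaks on ETn copies, all multi-copy, were set aside, so the 0 follows in part from that choice. The folds of the 13 ran from 20.68 to 97.65 with a median of 31.1. They included the 2 highest folds of all away Rex2 peaks. The first, at chr11:115895900-115896099 in an intron of Unk, which encodes an RNA-binding zinc finger protein, had 119 tags and a fold of 97.65. The second, at chr17:36168525-36168724 in a coding exon of H2-T23, a nonclassical MHC class I gene, had 81 tags and a fold of 70.31. Both were far above the next peak of this set, at chr9:57801910-57802109 in a coding exon of the semaphorin gene Sema7a, with 37 tags and a fold of 44.1. An intronic peak at chr1:188559806-188560005 in Rrp15, a ribosome biogenesis gene, completed those within the 10 highest, with 57 tags and a fold of 40.99. The lower 9 peaks of this set had folds of 20.68 to 39.69. Among them, an intronic peak in Psmd5, which encodes a chaperone of proteasome assembly, had 49 tags and a fold of 39.69, and an intronic peak in Cacna1c, a calcium channel gene, had 26 tags and a fold of 26.57. Introns of Lnpep, an aminopeptidase gene, and Sil1, a gene of the endoplasmic reticulum, held peaks of 22 tags each with folds of 24.25 and 22.05. The peak in an intron of Mzt1, a component of the gamma-tubulin complex, had the lowest fold of all away Rex2 peaks, 20.68, although its 68 tags were the third highest count. Over all away Rex2 peaks, 12 of 23 lay in annotated genes (52.2%, Wilson interval 33% to 70.8%). Of the 13 without an ETn copy, 10 lay in annotated genes (76.9%, Wilson interval 49.7% to 91.8%), with 8 in introns and 2 in coding exons. The share was 41.1% of the peaks of the other KRAB-ZFPs and 41.1% of random windows. These sets include multi-copy windows, unlike the 13, and the share among their low-copy windows alone was not computed, so the comparison is not like for like.

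CTACGG, which occurs in the ETn oligo at positions 20 to 25, was present on either strand in 4 of the 13 windows (30.8%, Wilson interval 12.7% to 57.6%). It occurred in 1.59% of the windows of the other KRAB-ZFPs and in 0.965% of random windows of the same 200 bp. This run was chosen after the windows had been seen, so its count supports nothing by itself. The 4 windows were those at Unk, H2-T23 and Rrp15 and an intergenic window near Tcfec. Their folds ran from 26.46 to 97.65, and those of the 9 windows without CTACGG from 20.68 to 44.1, so the ranges overlap. The fold near Tcfec, 26.46, was below the median of 30.87 of these 9. At these 4 loci the base before the run was C, and CCTACGG was present in 0.398% of the other windows and 0.31% of random windows. This longer run was also chosen after the windows had been seen, so its shares support nothing by themselves. In the oligo that base is G, and 0 of 44 near Rex2 windows held CCTACGG. All 44 hold a copy of the oligo, so this 0 largely follows from the oligo's own letters. The sequences are shown to compare the letters around the run, which is in capitals, in the direction that reads CTACGG, with its centre in the middle of 50 bases of mm9.
Unk, chr11:115895967-115896016, minus strand: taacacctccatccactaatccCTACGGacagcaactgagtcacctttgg
H2-T23, chr17:36168589-36168638, minus strand: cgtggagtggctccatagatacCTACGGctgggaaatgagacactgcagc
Rrp15, chr1:188559880-188559929, plus strand: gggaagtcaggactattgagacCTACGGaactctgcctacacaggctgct
Tcfec, chr6:16506673-16506722, plus strand: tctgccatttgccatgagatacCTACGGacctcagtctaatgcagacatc
The last of these is intergenic, 341723 bp from the transcript start of Tcfec, a transcription factor gene that is the nearest annotated start. The centre of the run lay 1 to 21 bp from the centre of the window at these loci. In the away Zfp600 peaks CTACGG was found in 1 of 108 windows, that at Unk.

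Rex2 and Zfp600 shared 3 away loci, which are 13% of the 23 Rex2 loci and 2.78% of the 108 Zfp600 loci. Near the anchors they shared 11, or 25% of the Rex2 and 91.7% of the Zfp600 loci. These shares depend on the looser thresholds at which the Zfp600 peaks were called. At a score over 100 and a fold over 20, 8 away and 1 near Zfp600 peaks remained, and 2 away loci were shared. None of the 3 shared away loci held the ETn oligo, and all 3 had a copy number of 1. The windows of both proteins at a locus had to overlap by at least 25%, and the summits were in fact 9 to 24 bp apart. At Unk, Zfp600 had 250 tags and a fold of 151.7, the highest of its 120 peaks, against 119 tags and 97.65 for Rex2. In an intron of Phgdh, which encodes the first enzyme of serine synthesis from glycolysis, Rex2 had 22 tags and a fold of 30.87 and Zfp600 had 17 tags and a fold of 20.83. The locus nearest to Dse, a dermatan sulfate biosynthesis gene 27910 bp away, had 38 tags and a fold of 31.08 for Rex2 and 16 tags and a fold of 12.3 for Zfp600. The Zfp600 fold was thus 1.55 times the Rex2 fold at Unk, while it was 0.675 and 0.396 times the Rex2 fold at the other away loci and 0.231 to 0.98 times at the 11 near loci. Folds of different libraries depend on their depth and background, which are unknown here, so only the order of loci within a library can be read. The 60 bases around the Rex2 summits at the shared loci without CTACGG are shown for comparison, on the plus strand of mm9.
Phgdh, chr3:98127078-98127137: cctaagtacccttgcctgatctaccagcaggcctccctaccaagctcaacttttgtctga
Dse, chr10:33955238-33955297: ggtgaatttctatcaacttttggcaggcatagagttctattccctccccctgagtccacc

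**Figure D3:**
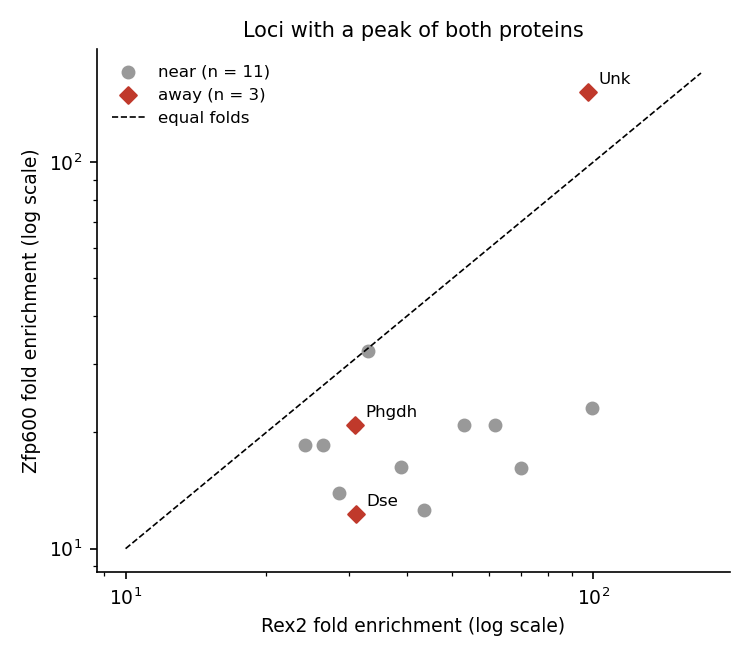
Each point is a locus with a peak of both proteins, with the deposited Rex2 fold on the x axis and the Zfp600 fold on the y axis (log scales), and the dashed line marks equal folds. The away locus at Unk (97.65 and 151.7) lies above the line, and the other 2 away loci and the 11 near loci lie below it.

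The away Zfp600 peaks were mostly weak. Their median fold was 13.8 and their median tag count 9.5, and 89 of 108 had at most 12 tags. The near Zfp600 peaks had a median fold of 18.5 and 12 tags. The deposited false discovery rate, from swapping ChIP and control, was at most 5% for 1 away peak, Unk, and for 0 of 12 near peaks. For Rex2 it was at most 5% for 17 of 23 away and 38 of 44 near peaks, and the highest rates among the away Rex2 peaks were those of the strongest, 50% at Unk and 20% at H2-T23. At the Rex2 thresholds, a score (10 times the negative log10 of the p-value) over 100 and a fold over 20, 8 of 108 away and 1 of 12 near peaks were kept. The peak ranked after Unk lay at chr9:57399758-57399957 in an intron of Mpi, the mannose phosphate isomerase gene, 216 bp from its transcript start, with 73 tags and a fold of 43.98. Rex2 had no peak there. Besides Phgdh and the arrays, the 10 highest folds included 20.83 in an intron of 2410003L11Rik with 19 tags and 20.83 at an intergenic locus nearest to AC091260.1 with 9 tags, where the copy number was 6520. In the away Rex2 peaks the medians were a fold of 39.7 and 32 tags, compared with 35.3 and 28 near the anchors, and the folds of both sets spanned 20.68 to 99.22.

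Windows with many TAGGG made up much of the stronger Zfp600 peaks. A window was called an array when TAGGG occurred at least 10 times over both strands together. Both the run TAGGG and this limit were chosen after the windows had been seen, so the shares of arrays support nothing by themselves. The spacing of the TAGGG and the repeat unit were not examined, so the term stands only for the number of TAGGG in a window. Arrays were found in 8 of 108 away Zfp600 windows (7.41%, Wilson interval 3.8% to 13.9%), compared with 0.0208% of the windows of the other KRAB-ZFPs, or 11 windows, and 0 of 20000 random windows. No Rex2 window and no near Zfp600 window was an array, but the Rex2 peaks were called at stricter thresholds. Of the 10 highest away Zfp600 folds, 5 were on arrays. Their median fold was 22.4 and their median tag count 21, while the 97 away peaks that were neither arrays nor shared with Rex2 had medians of 13.4 and 9.

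The strongest array peak lay in an intron of Col23a1, a collagen gene, with 25 TAGGG in the window, 20 tags and a fold of 37.42. The peak at chrX:130684732-130684931, in a UTR of the NADPH oxidase gene Nox1, had 24 TAGGG, 17 tags and a fold of 34.72. In an intron of Efna5, an ephrin gene, the peak at chr17:63086839-63087038 had 12 TAGGG, 71 tags and a fold of 24.65. Intergenic peaks at chrX:14317079-14317278 and chr13:116532404-116532603 had folds of 23.83 and 20.95. The other 3 array peaks, at folds of 16.97, 12.36 and 10.02, were on chromosomes 6, 3 and 5.

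Arrays were rare in the other proteins, most of which were called at a stricter p-value than Zfp600. They were found in 19 windows of 9 KRAB-ZFPs in the whole table, and Zfp600 held 8 of them. None of these 9 proteins was called at the enrichment limit of 20 used for Rex2. Of the 8 Zfp600 arrays, 4 passed a score over 100 and a fold over 20. Whether the array counts follow the calling thresholds was not tested. 2610305D13Rik, precipitated with a FLAG antibody, had 3 among its 83 peaks, and 2 of these were at Zfp600 loci. At Efna5 its fold was 26.14 with 72 tags, and that of Zfp600 was 24.65 with 71 tags. In an intron of Ppp1r9a, a neuronal actin-binding protein gene, its fold was 29.36 with 55 tags, and that of Zfp600 was 16.97 with 26 tags. The depth and background of these libraries are unknown, so the values of the 2 proteins cannot be compared in size. Median copy numbers at the 8 Zfp600 arrays ran from 1 to 28, and reads with several equally good positions were placed at 1 of them, so the share of each array's reads that came from other arrays was not tested.

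**Figure D4:**
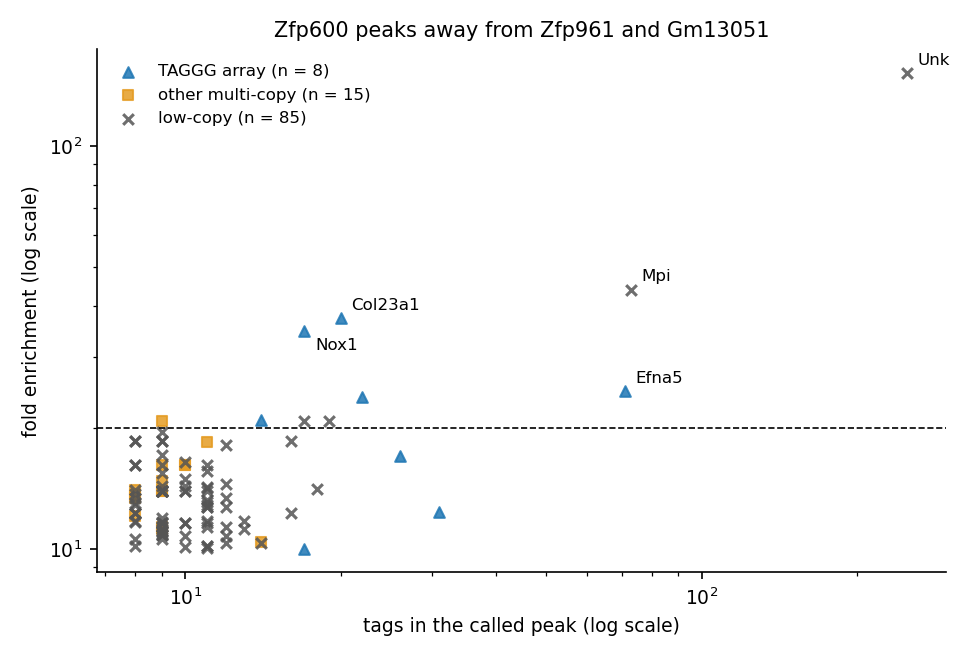
Each point is an away Zfp600 peak, with tags in the called peak on the x axis and deposited fold enrichment on the y axis (log scales), coloured by the sequence class of its window, and the dashed line marks a fold of 20. Most of the 85 low-copy and 15 other multi-copy peaks sit at 8 to 12 tags and below the line. The 10 peaks above it are 5 of the 8 TAGGG arrays and those at Unk, Mpi, Phgdh, 2410003L11Rik and nearest to AC091260.1.

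Outside the arrays, 15 away Zfp600 windows were multi-copy, with folds of 10.43 to 20.83 and 8 to 14 tags, and 85 were low-copy. With the arrays, 19 of 108 (17.6%, Wilson interval 11.6% to 25.8%) reached the limit of 10 copies. Only 14 of the 108 windows resembled another of them at 80% identity over 100 bases, and 7 of these were arrays. The largest other group was 3 windows, nearest to AC091260.1, Cdh18 and Pot1a, with folds of 13.89 to 20.83. The GC content of the away Zfp600 windows had a median of 39.2%, against 47.5% for the away Rex2 windows, 47.5% for the other KRAB-ZFPs and 41.5% for random windows.

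Genes held 44 of the 108 away Zfp600 summits (40.7%, Wilson interval 31.9% to 50.2%), about the share of the other peaks and of random windows. A transcript start lay within 1 kb of 1 of 23 away Rex2 and 5 of 108 away Zfp600 summits (4.35% and 4.63%), compared with 11.2% of the peaks of the other KRAB-ZFPs and 4.16% of random windows. The Rex2 peak was that in H2-T23, 741 bp from a start of BC023719. The Zfp600 peaks were those at Mpi, at Snf8, an ESCRT gene, with a fold of 17.12 and 9 tags, at the olfactory receptor gene Olfr1359 with a fold of 14.93 and 10 tags, at Mios, a gene of the amino acid sensing pathway, with a fold of 11.37 and 11 tags, and at a U2 small nuclear RNA gene with a fold of 10.79 and 12 tags. Except at Mpi, none of these peaks had more than 12 tags. No away summit of either protein lay within 10 kb of a gene of the lists for KAP1 silencing (19 genes found in the annotation), pluripotency (19 genes) or the tagged KRAB-ZFPs themselves (64 genes), where 0.0568%, 0.0738% and 0.203% of the other peaks did, so at these shares few or none would be counted among 131 peaks.

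Peaks of other KRAB-ZFPs overlapped the away peaks at about the background share. A window of another protein, with Zfp961 and Gm13051 left out, overlapped 3 of 23 away Rex2 and 16 of 108 away Zfp600 windows (13% and 14.8%), close to the 14.1% of the peaks of KRAB-ZFPs other than these 4. All 3 Rex2 overlaps were with Zfp600, and no other protein overlapped an away Rex2 peak (0 of 23, Wilson interval 0% to 14.3%). For Zfp600, 13 overlaps were with proteins other than Rex2. These were Gm13235 at 3 loci and 2610305D13Rik, Gm13225, Zfp457, Zfp759, Zfp872 and Zfp935 at 2 each, with further proteins at 1 locus each. Leaving out the arrays, 11 such loci remained. Over the 13 loci the Zfp600 folds were 10.43 to 24.65.

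The 10 kb limit cut through few peaks. The last Rex2 peak inside it was 8058 bp from Zfp961, at chr17:54259619-54259818 with a fold of 20.94, and held an ETn copy. The first outside were the Phgdh locus at 11726 bp from Zfp961, without a copy, and chr11:6658748-6658947 at 12967 bp from Gm13051, with a copy. For Zfp600 the last inside was chr15:33732953-33733152 at 5523 bp from Zfp961, with a fold of 13.48 and the only near peak of this protein without an ETn copy. The first outside were Phgdh at 11735 bp and the intergenic peak at chr2:27471163-27471362, nearest to the start of Rxra, at 17665 bp with a fold of 11. Most away summits were much farther out, with a median distance to the nearest anchor of 377490 bp for Rex2 and 500549 bp for Zfp600.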

How the data were processed

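The members and the gene lists were chosen with earlier results of these data known. The authors mapped reads to mm9 with Bowtie, called peaks per sample with MACS 1.4.2 against input and a control ChIP, and set each peak to 200 bp around its summit. The authors deposited for each peak its position, the tags as a raw count, a score (10 times the negative log10 of the p-value), the fold enrichment as a ratio and the false discovery rate as a percent. The table had 53255 rows. The 244 rows of 1 name that matches no label were not used, and 67 KRAB-ZFPs remained. Library depth is not given in the sources used here; the tags inside peaks summed to 2284 for Rex2 and 1681 for Zfp600.

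Windows were cut from NCBIM37 (mm9) and compared with gencode vM1. A site copy needed 80% identity over at least 40 bases. The sequences of the array windows are not reported here. Copy number is the median genome count of the 24-mers of a window, and 10 or more is multi-copy. The background was the windows of the other KRAB-ZFPs and 20000 random windows. ETn LTRs were placed by aligning 902 distinct probe sequences of the study (blastn 2.17.0, at least 90% identity over 100 bases). Peaks were named when among the 10 highest folds per protein, shared by both proteins, within 1 kb of a transcript start or next to the 10 kb limit; other peaks named were chosen after their values were seen. Analyses used Python 3.11.15, numpy 2.4.6 and pandas 2.3.3, and the searches were tested on simulated data. With 1 sample per protein no test was possible, and none was run.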

Additional observations from a re-analysis of the deposited data

How the results depend on the processing

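Of 56 alternatives over 19 results, 42 moved the value by at most 1.5 times, 14 moved it by more and 0 turned a direction. Only the ratios of away to near median folds had a direction that could turn, since the other results are counts. The 42 include the away loci shared by Rex2 and Zfp600, which fell from 3 to 2 at a score over 100 and a fold over 20. The away Rex2 count of 23 became 36 when only anchors within 1000 bp counted as near, 35 with Zfp961 alone and 42 with Gm13051 alone as anchor. The away Zfp600 count of 108 became 8 at a score over 100 and a fold over 20 and 1 at a false discovery rate of at most 5%. Multi-copy away Zfp600 peaks numbered 29 at 2 or more copies and 8 at 100 or more, against 19. Away Zfp600 peaks with an ETn LTR fell from 3 to 0 within 5000 bp, and transcript starts within 5000 bp gave 4 Rex2 and 19 Zfp600 peaks, against 1 and 5. Away Zfp600 peaks overlapping another KRAB-ZFP numbered 3 at the stricter thresholds, against 16. The TAGGG arrays, whose alternatives were chosen after seeing the data, numbered 5 at 15 or more and 5 at 20 or more TAGGG, and 4 at the stricter thresholds, against 8. The 10 away Rex2 peaks on ETn copies and the 0 of Zfp600 did not change with the identity limit or a wider window. No paired analysis was possible because each protein had 1 sample, and for the same reason no replicate could be left out.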
